A study of Mus musculus with 18 samples.

Results

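The genes described here are 10 factors and markers of the epithelial-mesenchymal transition (EMT): the transcription factors Snai1, Snai2, Zeb1, Zeb2, Twist1 and Twist2, the mesenchymal markers Vim, Fn1 and Cdh2, and the epithelial marker Cdh1. They were chosen by name, and each was found by its Ensembl identifier among the 55487 genes of the deposited count files. Their levels were read in 18 bulk RNA-seq libraries, 3 in each of 6 groups. The tumour cells were of the line T23, derived from a prostate adenocarcinoma of the mouse.

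In 3 groups the tumour cells were untreated: without fibroblasts, in co-culture with wild-type ones, or in co-culture with fibroblasts lacking Sparc (below, Sparc-deficient). SPARC is a matricellular glycoprotein that stromal cells secrete. All 3 remaining groups received enzalutamide, an antiandrogen drug. One of them had no fibroblasts, another had them, and the last had them plus isoliquiritigenin, a plant chalcone. Both treated co-cultures carry the fibroblast name FIBROB6 of the wild-type co-culture in their titles, whereas their descriptions call the fibroblasts human. Comparisons between treated and untreated co-cultures therefore assume the same fibroblasts, which was not tested. Doses, times, cell ratios and whether fibroblasts were removed before RNA extraction are not given in the sources used here. Nothing in the labels ties a replicate to its own culture, and p-values therefore measure the spread between these libraries, which may be technical. In such bulk samples, fewer cells of a type and less RNA per cell cannot be told apart.

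Library totals ran from 16.1 to 26.7 M counts. In replicate 2 of enzalutamide without fibroblasts, 26.4% of counts fell on a ribosomal RNA gene, against 0.0391 to 0.139% in the other 17 libraries. Member calls between enzalutamide and T23 cells alone are given with and without it. The related lists, and the single-gene values of the interaction and of fibroblasts added under enzalutamide, are given only with it. The index that ends each title restarts within the enzalutamide co-culture, whose replicate 1 belongs to the first numbering series and whose replicates 2 and 3 belong to the second, together with all isoliquiritigenin libraries. What this restart marks is not stated. Sparc itself stood at 2586 to 3208 CPM (counts per M, scaled by TMM) in every library. The deletion was in the fibroblasts, so this level does not check it.

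In an EMT, epithelial cells lose junctions and polarity and take on a migratory, matrix-producing state. SNAIL, ZEB and TWIST proteins bind E-box motifs and repress epithelial genes, above all Cdh1, which encodes the adherens junction protein E-cadherin. Vimentin (Vim) is the intermediate filament protein of mesenchymal cells, fibronectin (Fn1) is a matrix glycoprotein read by integrins, and N-cadherin (Cdh2) often replaces E-cadherin. Adenocarcinoma cells of the prostate are usually cadherin-rich epithelial cells, and enzalutamide resistance has been linked to such changes of state.

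Promoter sequences were at hand for 5 of the 10 genes (Snai1, Twist1, Twist2, Vim and Zeb2) in RefSeq, build GRCm38.p6. The 250 bases before the start are shown for a SNAIL gene whose level differed little between groups (Snai1), for the TWIST pair, whose levels changed in different comparisons, and for Vim, which fell most. All 4 lie on the plus strand and are written 5′ to 3′, with matches to searched motifs in capitals. Snai1 is at chr2:167537945-167538194, Twist1 at chr12:33957421-33957670, Twist2 at chr1:91801211-91801460 and Vim at chr2:13574061-13574310.
Snai1: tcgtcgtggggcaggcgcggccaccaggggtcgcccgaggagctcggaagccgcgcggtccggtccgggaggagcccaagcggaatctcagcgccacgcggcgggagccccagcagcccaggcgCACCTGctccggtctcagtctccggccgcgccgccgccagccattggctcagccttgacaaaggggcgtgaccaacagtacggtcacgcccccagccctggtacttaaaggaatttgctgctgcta
Twist1: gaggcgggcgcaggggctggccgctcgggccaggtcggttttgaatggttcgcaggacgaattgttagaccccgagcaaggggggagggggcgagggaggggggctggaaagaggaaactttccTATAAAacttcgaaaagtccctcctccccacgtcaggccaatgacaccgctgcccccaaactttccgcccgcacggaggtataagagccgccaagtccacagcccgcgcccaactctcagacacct
Twist2: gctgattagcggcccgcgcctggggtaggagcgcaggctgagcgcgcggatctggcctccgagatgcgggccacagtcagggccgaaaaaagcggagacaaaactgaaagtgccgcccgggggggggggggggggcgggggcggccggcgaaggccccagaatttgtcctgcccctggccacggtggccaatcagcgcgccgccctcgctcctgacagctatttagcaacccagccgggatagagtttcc
Vim: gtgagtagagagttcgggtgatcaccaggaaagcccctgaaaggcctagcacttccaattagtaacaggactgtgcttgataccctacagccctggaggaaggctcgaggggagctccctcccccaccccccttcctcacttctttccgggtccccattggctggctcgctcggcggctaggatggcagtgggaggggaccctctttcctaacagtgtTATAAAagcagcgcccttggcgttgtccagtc
The capitals in Snai1 are CACCTG, an E2-box to which SNAIL and ZEB proteins can bind, beginning 126 bases before the start. The capitals in Twist1 and Vim are TATAAA, beginning 126 and 32 bases before the start. No searched motif was found in the Twist2 window. Motifs were searched on both strands over 300 bases (250 before to 50 after the start) in 32851 promoters of that length. The E-box CANNTG was found in 72.3% of them, the E2-box CACCTG (a form of CANNTG) in 20.2%, the AP-1 motif TGANTCA in 7.81% and the TEAD motif GGAATG in 14.7%. The STAT motif TTCNNNGAA was found in 8.30%, the motif AGAACA in 19.0% and the TATA box TATAAA in 13.6%. Of the 5 members with an entry, Snai1 alone had an E-box match. One of the 4 Zeb2 entries held the AP-1 motif at positions -189 and -132 from the start and the TEAD motif, on the other strand, at -157. The STAT motif was in 2 other Zeb2 entries, at -147 and -173. The windows of these entries overlap, and both matches are the same site. These matches are descriptions of the letters and not of binding.

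Vim, Fn1, Cdh2 and the 6 factors were detected in every library, and Cdh1 was near 0 in all groups. Cdh1 had 0 to 7 counts in a library, and 3 of the 18 libraries, of the wild-type and Sparc-deficient co-cultures, had none. A count of 0 allows up to 3 counts, which is 0.139 to 0.157 per M of the library total in these libraries, without TMM scaling. Over the 3 libraries of a group its counts summed to 9 in T23 cells alone, 10 in the wild-type and 7 in the Sparc-deficient co-culture. The sums under enzalutamide were 10 without fibroblasts, 5 in co-culture and 6 once isoliquiritigenin was added. No difference between groups was detectable at this depth, and Cdh1 did not pass the filter on low counts. The other 9 genes passed it and were tested.

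The labelled cell type was checked against defining markers. Among luminal epithelial markers, Epcam (0 to 0.314 CPM over all libraries), Krt8 (0 to 0.521 CPM) and Krt18 (0.0934 to 0.736 CPM) stayed near 0, and Pbsn was at 0 in all 18. Of 14 fibroblast markers, 12 reached 1 CPM in T23 cells alone, and their summed level was 28900 to 30200 CPM. Most of that sum came from the collagen genes Col1a1, Col1a2 and Col3a1 (means of 10790, 10390 and 4917 CPM). Cdh1, Epcam, Krt8 and Krt18, defining markers of luminal epithelium, were thus near 0 in every group. Fibroblast markers were already high in T23 cells without fibroblasts.

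**Figure D1:**
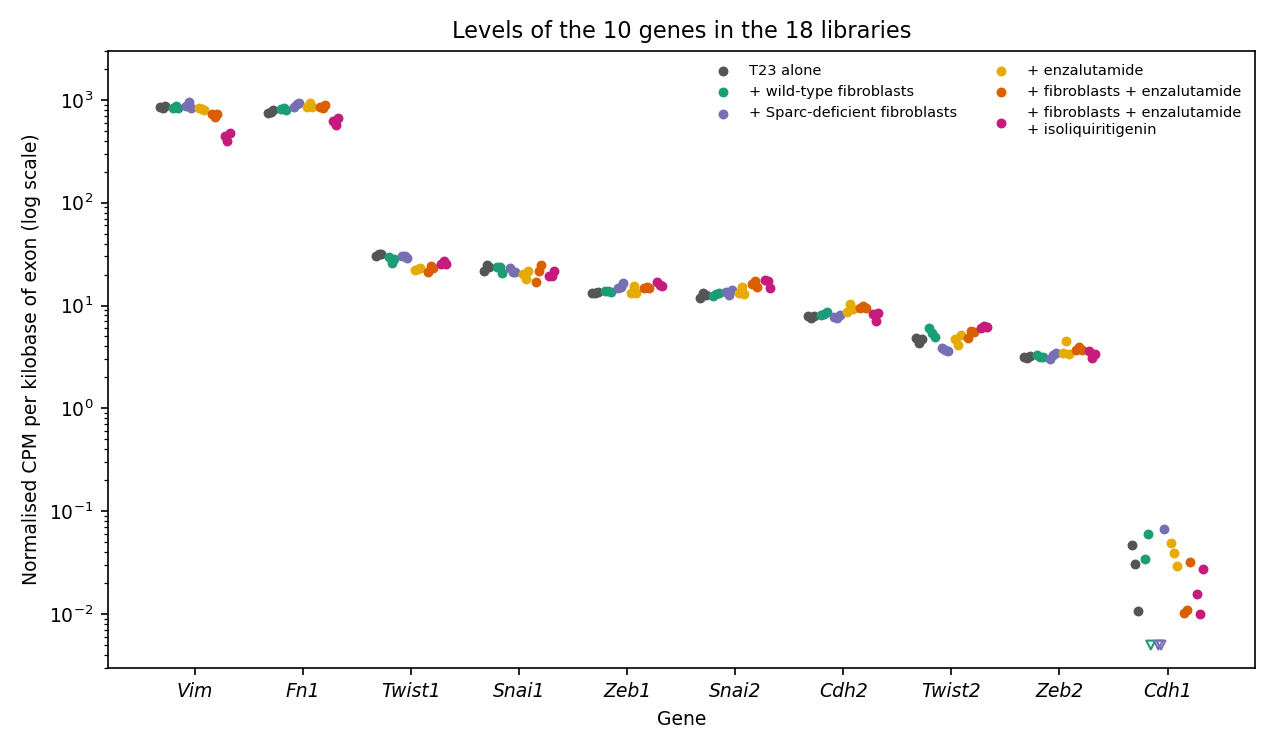
Levels of the 10 genes in each of the 18 libraries, as normalised CPM per kilobase of exon on a log axis, coloured by group. Vim and Fn1 stand between 399 and 942, the 6 transcription factors and Cdh2 between 3.02 and 31.5, and Cdh1 at or below 0.0671, with 3 libraries at 0 drawn as open triangles at the foot.

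Compared per kilobase of exon, Vim and Fn1 were the most abundant of the 10. In T23 cells alone Vim stood at 846 ± 15.0 CPM per kb (SD, n = 3) and Fn1 at 766 ± 23.0. Among the factors, Twist1 led with 31.2 ± 0.48 CPM per kb, followed by Snai1 with 23.3 ± 1.53. Zeb1 (13.4 ± 0.206 CPM per kb) and Snai2 (12.6 ± 0.743 CPM per kb) were adjacent and overlapped in their libraries' spread. Cdh2 followed with 7.82 ± 0.248 CPM per kb, then Twist2 with 4.62 ± 0.248, Zeb2 with 3.13 ± 0.0632 and Cdh1 with 0.0296 ± 0.0181. Over the 18 libraries the Twist1 level per kb was 4.14 to 8.15 times that of Twist2, and that of Zeb1 was 3.44 to 5.13 times that of Zeb2. The Snai1 level per kb was 1.04 to 1.89 times that of Snai2, near parity in the lowest library. Twist2 shares 1477 of its 3174 exon bases with the antisense gene Gm29100 (11 to 48 counts in a library, against 146 to 536 for Twist2). The library kit marks strand but the setting of the counting is not given, so Twist2 values are uncertain to that extent.

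**Figure D2:**
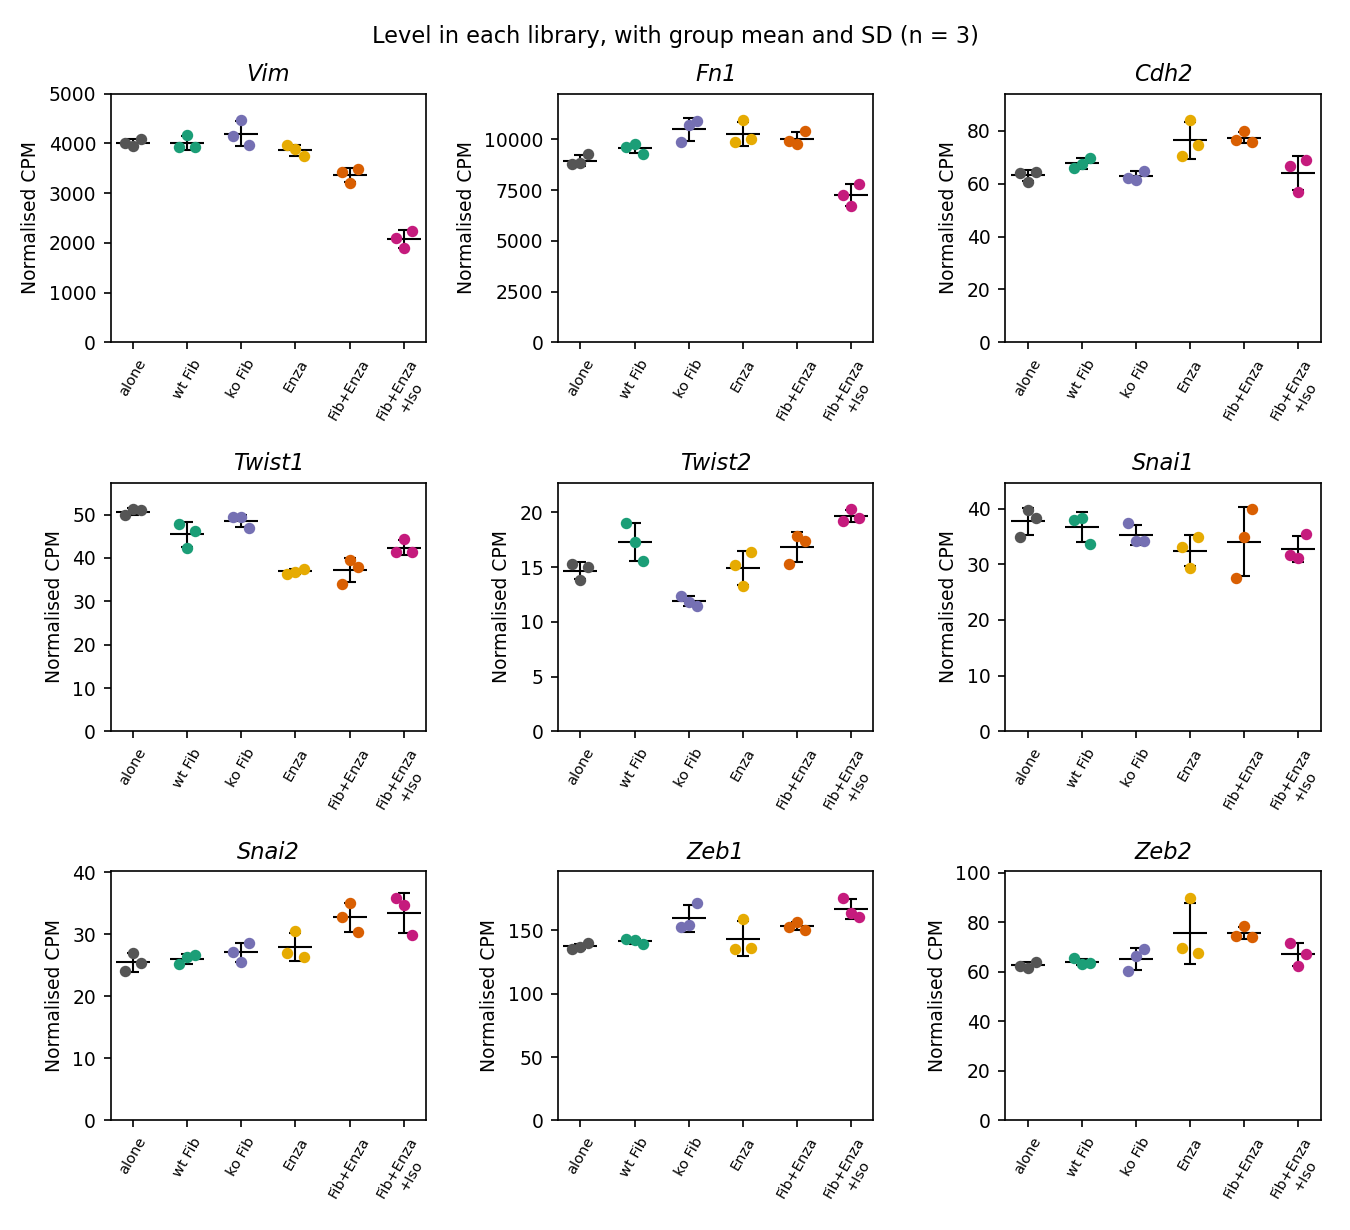
Level of the 9 tested genes in each library by group (points), with the group mean and SD (n = 3), as normalised CPM on axes from 0; wt Fib and ko Fib are the wild-type and Sparc-deficient co-cultures, Enza is enzalutamide and Iso is isoliquiritigenin. Vim fell from 3211 to 3479 CPM in the enzalutamide co-culture to 1891 to 2245 CPM with isoliquiritigenin, and the highest group mean of Vim is 2.02 times the lowest, against 1.16 to 1.66 times for the 6 factors.

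A test of any difference across the 6 groups called 8 of the 9 tested genes at adjusted p under 0.05, where 54.3% of all 13600 tested genes were called. The exception was Snai1 (adjusted p = 0.294), whose group means ran from 32.4 CPM with enzalutamide to 37.7 CPM in T23 cells alone. The ratio of the highest to the lowest group mean was largest for Vim (2.02), Twist2 (1.66), Fn1 (1.45) and Twist1 (1.37). For Snai2, Cdh2, Zeb1, Zeb2 and Snai1 it lay between 1.16 and 1.31. The 7 pairwise comparisons share groups, so their results are not independent of each other.

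None of the 9 tested genes was called with wild-type fibroblasts. By edgeR's quasi-likelihood test 0 of 9 were called, beside 0.257% of all genes higher and 0.257% lower, and DESeq2 also called 0. Without adjustment, 2 of the 9 had p under 0.05. One was Twist1, with 47.8, 42.3 and 46.2 CPM beside fibroblasts and 49.8, 51.3 and 51.04 CPM alone (log2 fold change -0.16 ± 0.06 SE, adjusted p = 0.346). The other was Twist2, with 19.1, 17.2 and 15.6 CPM beside fibroblasts and 15.3, 13.8 and 15.0 CPM alone (0.24 ± 0.09, adjusted p = 0.322). The ranges of both genes stood apart in opposite directions, but neither passed the adjustment over all genes. Fn1 (9299 to 9759 against 8780 to 9265 CPM) and Cdh2 (65.8 to 69.8 against 60.8 to 64.4 CPM) also stood apart and were not called. The share of all genes whose ranges stand apart was not counted, here or in the other comparisons. Vim had a log2 fold change of -0.00114 ± 0.0595 in the same comparison.

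Sparc-deficient and wild-type co-cultures were compared as bulk RNA, which may include RNA of the fibroblasts themselves. Twist2, a basic helix-loop-helix factor, fell and Zeb1, a zinc-finger homeobox repressor, rose. These were 2 of 9 tested genes, where 6.72% of all genes were higher and 4.79% lower. Twist2 stood at 12.4, 11.8 and 11.4 CPM with Sparc-deficient fibroblasts and at 19.1, 17.2 and 15.6 CPM with wild-type fibroblasts, so every Sparc-deficient library was below every wild-type library. It fell by 0.54 ± 0.09 on the log2 scale (1.46-fold, adjusted p = 0.00028), and remained called in all 26 alternative settings. Gm29100 on the opposite strand stood at 1.65 ± 0.197 CPM with Sparc-deficient and 1.32 ± 0.300 CPM with wild-type fibroblasts (SD, n = 3). Zeb1 stood at 152, 154 and 172 CPM against 143, 142 and 139 CPM, a rise of 0.18 ± 0.06 (1.13-fold, adjusted p = 0.0496). Replicate 3 of the Sparc-deficient co-culture held the highest Zeb1 level of that comparison. Without it the log2 fold change was 0.12 (adjusted p = 0.24), and the Zeb1 call was lost in 15 of the 26 alternatives.

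Against T23 cells alone, the Sparc-deficient co-culture showed 3 of 9 genes called, where 6.10% of all genes were higher and 3.65% lower. Zeb1 rose by 0.22 ± 0.06 (adjusted p = 0.0176) and Fn1 by 0.23 ± 0.06 (adjusted p = 0.0103), while Twist2 fell by 0.31 ± 0.09 (adjusted p = 0.0375). Fn1 stood at 9855, 10710 and 10910 CPM with Sparc-deficient fibroblasts and at 8780, 8823 and 9265 CPM alone, without overlap. The summed fibroblast markers were 30550 to 32050 CPM in these co-cultures and 28900 to 30200 CPM in T23 cells alone, and their part in the Fn1 difference was not tested. None of the 3 calls remained when replicate 1 of T23 cells alone or replicate 3 of the Sparc-deficient co-culture was left out. Without the former the adjusted p was 0.0778 for Zeb1, 0.0616 for Fn1 and 0.148 for Twist2. Without the latter it was 0.129, 0.0574 and 0.14. Leaving out replicate 2 of either group left 1 call.

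Beside these members, 8 of 21 tested genes of fibronectin receptors and partner matrix were higher and 1 was lower with Sparc-deficient than with wild-type fibroblasts (median log2 fold change 0.15, against -0.00539 over all genes), where 6.72% of all genes were higher and 4.79% lower. The summed fibroblast markers were 30550 to 32050 CPM with Sparc-deficient and 27870 to 29360 CPM with wild-type fibroblasts, without overlap, and their part in these differences was not tested. That marker list shares Col1a1, Col3a1, Postn and Fbln1 with the matrix list. Sdc4, a syndecan co-receptor for fibronectin, rose by 0.41 ± 0.05, the crosslinking enzyme gene Tgm2 by 0.37 ± 0.05 and Fbln2 (fibulin 2) by 0.41 ± 0.06. Fn1 itself was 10490 ± 559 against 9555 ± 234 CPM (SD, n = 3), a difference that was not called (0.13 ± 0.06, adjusted p = 0.132). Of 27 listed epithelial adhesion and junction genes 12 were tested, and 5 reached a mean of 10 CPM in both co-cultures. Of the 12, 3 rose and none fell (median 0.18): Muc1 (0.96 ± 0.17), the tight junction gene F11r (0.35 ± 0.08) and the claudin gene Cldn1 (0.88 ± 0.24). The mean Cldn1 level reached 1 CPM in both co-cultures, but in none of the groups with enzalutamide. Of the 5 tested epithelial-state factors, Klf5 rose by 0.68 ± 0.09 and Rbm47 by 0.43 ± 0.12, whereas Klf4 fell by 0.34 ± 0.07. Of 12 tested other cadherins and catenins, 1 rose (Cdh13, by 0.46 ± 0.10) and 2 fell (Cdh6 by 1.95 ± 0.30 and Jup by 0.22 ± 0.06). The mean Cdh6 level was below 1 CPM with Sparc-deficient fibroblasts. Of 22 other EMT-linked factors, Hmga2 alone was called (fell by 0.22 ± 0.06). Of 9 tested TWIST partners and inhibitors, Id1, an inhibitor of basic helix-loop-helix factors, was the one called between the fibroblast genotypes (fell by 0.41 ± 0.12). Against T23 cells alone, Id1, Id3 and Id2 fell by 0.82 ± 0.12, 0.53 ± 0.11 and 0.53 ± 0.15 in the Sparc-deficient co-culture. The mean Id3 level was 45.5 CPM in T23 cells alone, 33.8 CPM with wild-type and 31.5 CPM with Sparc-deficient fibroblasts, and the mean Id2 level was 8.88, 7.28 and 6.16 CPM, so that both were already lower in the wild-type co-culture on average.

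With enzalutamide and no fibroblasts, Twist1 fell and Cdh2, Zeb2 and Fn1 rose. These were 4 of the 9 tested genes, where 6.84% of all genes were higher and 5.19% lower. Twist1 stood at 36.4, 36.7 and 37.5 CPM with enzalutamide and at 49.8, 51.3 and 51.04 CPM without, and the groups did not overlap. It fell by 0.46 ± 0.06 (1.37-fold, adjusted p = 4.15e-05) and remained called in all 26 alternatives. Cdh2 stood at 70.5, 84.0 and 74.6 CPM against 64.1, 60.8 and 64.4 CPM, a rise of 0.27 ± 0.07 (adjusted p = 0.0106). Zeb2 stood at 69.5, 89.7 and 67.5 CPM against 62.5, 61.3 and 63.8 CPM (0.26 ± 0.08, adjusted p = 0.0334). Fn1 stood at 9867, 10950 and 10030 CPM against 8780, 8823 and 9265 CPM (0.20 ± 0.06, adjusted p = 0.0215). Groups did not overlap for Cdh2, Zeb2 or Fn1, and the highest library of each was enzalutamide replicate 2, the library with the ribosomal RNA excess. Without replicate 2 the log2 fold change was 0.20 for Cdh2 (adjusted p = 0.0479), 0.13 for Zeb2 (adjusted p = 0.21), 0.15 for Fn1 (adjusted p = 0.0914) and -0.46 for Twist1 (adjusted p = 4.67e-05). The count of called genes was then 2, and it was 2 without replicate 1 and 1 without replicate 2 of T23 cells alone. The summed fibroblast markers were lower with enzalutamide (24610 to 27010 CPM) than in T23 cells alone (28900 to 30200 CPM). Col1a1 and Col1a2 of that list were lower (means of 8653 and 8855 against 10790 and 10390 CPM). Dcn, Dpt and Postn were also lower on average (235.2, 25.49 and 788.7 against 297.6, 60.39 and 904.6 CPM). Col3a1, Col6a3 and Fbln1 were slightly lower (means of 4853, 797.4 and 21.24 against 4917, 837.9 and 21.72 CPM). Pdgfra, Pdgfrb, Thy1 and Fap were not lower (means of 1171, 230.7, 90.6 and 7.207 against 1114, 206.5, 85.51 and 4.261 CPM). The mitochondrial share of counts was 1.88 to 4.06% with enzalutamide and 0.824 to 1.11% in T23 cells alone. The part of fibroblast markers or mitochondrial share in the results was not tested. Snai1 stood at 33.0, 29.4 and 34.8 CPM against 34.9, 39.8 and 38.4 CPM, just apart, and was not called (-0.21 ± 0.10, adjusted p = 0.19).

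Among the partner lists, TGF-beta and BMP receptor input had 3 of 21 tested genes lower and none higher with enzalutamide (median 0.00202), where 6.84% of all genes were higher and 5.19% lower. The receptor gene Tgfbr2 fell by 0.56 ± 0.05, from 994 to 673 CPM on average, and the ligand genes Tgfb3 and Tgfb2 fell by 0.70 ± 0.07 and 0.27 ± 0.08. Of other EMT-linked factors, Prrx2 fell by 0.63 ± 0.10 and Sox9 rose by 0.27 ± 0.07. In the cytoskeletal list S100a4 and Myl9 fell by 0.67 ± 0.13 and 0.49 ± 0.13, and Plec rose by 0.21 ± 0.07. Id1, an inhibitor of basic helix-loop-helix factors, fell by 0.37 ± 0.12. Of other cadherins and catenins 3 of 12 rose, with Cdh6 at 1.17 ± 0.21, and none fell. With fibroblasts, the same TGF-beta and BMP list had 4 of 21 genes lower and 1 higher with enzalutamide, where 3.49% of all genes were lower and 3.70% higher, and Tgfbr2 and Tgfb3 fell by 0.47 ± 0.05 and 0.62 ± 0.07.

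With fibroblasts present, Twist1 and Vim fell and Snai2 rose with enzalutamide, 3 of 9 tested genes where 3.70% of all genes were higher and 3.49% lower. Twist1 stood at 34.1, 39.5 and 38.0 CPM in the enzalutamide co-culture and at 47.8, 42.3 and 46.2 CPM in the wild-type co-culture, and fell by 0.29 ± 0.06 (adjusted p = 0.00542). Snai2, a SNAIL-family repressor, stood at 32.8, 35.1 and 30.4 CPM against 25.2, 26.4 and 26.6 CPM (0.33 ± 0.08, adjusted p = 0.0114). Vim stood at 3421, 3211 and 3479 CPM against 3927, 4163 and 3936 CPM, and fell by 0.25 ± 0.06 (adjusted p = 0.00966). Groups overlapped for none of these genes. The summed fibroblast markers were 25060 to 26340 CPM in the enzalutamide and 27870 to 29360 CPM in the wild-type co-culture, and the mitochondrial share of counts was 1.55 to 2.71% against 0.853 to 1.34%. The part of either was not tested. The enzalutamide co-culture spans both numbering series of the titles, and the wild-type co-culture belongs to the first. Within the first series, where the enzalutamide co-culture has 1 library and its spread is taken from the other groups, the log2 fold change was -0.41 for Twist1 (adjusted p = 0.018), 0.33 for Snai2 (adjusted p = 0.167) and -0.23 for Vim (adjusted p = 0.246). Without replicate 2 of the enzalutamide co-culture, Snai2 (0.28, adjusted p = 0.0863) and Vim (-0.22, adjusted p = 0.0769) were no longer called and 1 call was left. Without replicate 2 of enzalutamide alone, which is in the fit but not in this comparison, 5 genes were called, with Zeb2 (0.24, adjusted p = 0.00462) and Cdh2 (0.19, adjusted p = 0.0303) added.

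Whether the enzalutamide response differed with and without fibroblasts was tested as an interaction. None of the 9 genes was called by edgeR's quasi-likelihood test, beside 0.0147% of all genes higher and 0.00735% lower, DESeq2 also called 0, and 1 gene had an unadjusted p under 0.05. That gene was Vim (-0.20 ± 0.08, adjusted p = 0.844). The Twist1 changes of -0.46 without and -0.29 with fibroblasts differed by 0.17 ± 0.09 (adjusted p = 0.921). The fall of Twist1 was called in both enzalutamide comparisons, which share no library but come from the same fit. Under enzalutamide, adding fibroblasts gave 0 called genes of 9 by edgeR, beside 1.14% of all genes higher and 0.941% lower, with 2 at an unadjusted p under 0.05 (Snai2, 0.24 ± 0.08, adjusted p = 0.143, and Vim). Vim stood at 3421, 3211 and 3479 CPM with and 3964, 3883 and 3739 CPM without fibroblasts, without overlap (-0.20 ± 0.06, adjusted p = 0.0877). DESeq2 called Vim in that comparison (adjusted p = 0.0295).

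**Figure D3:**
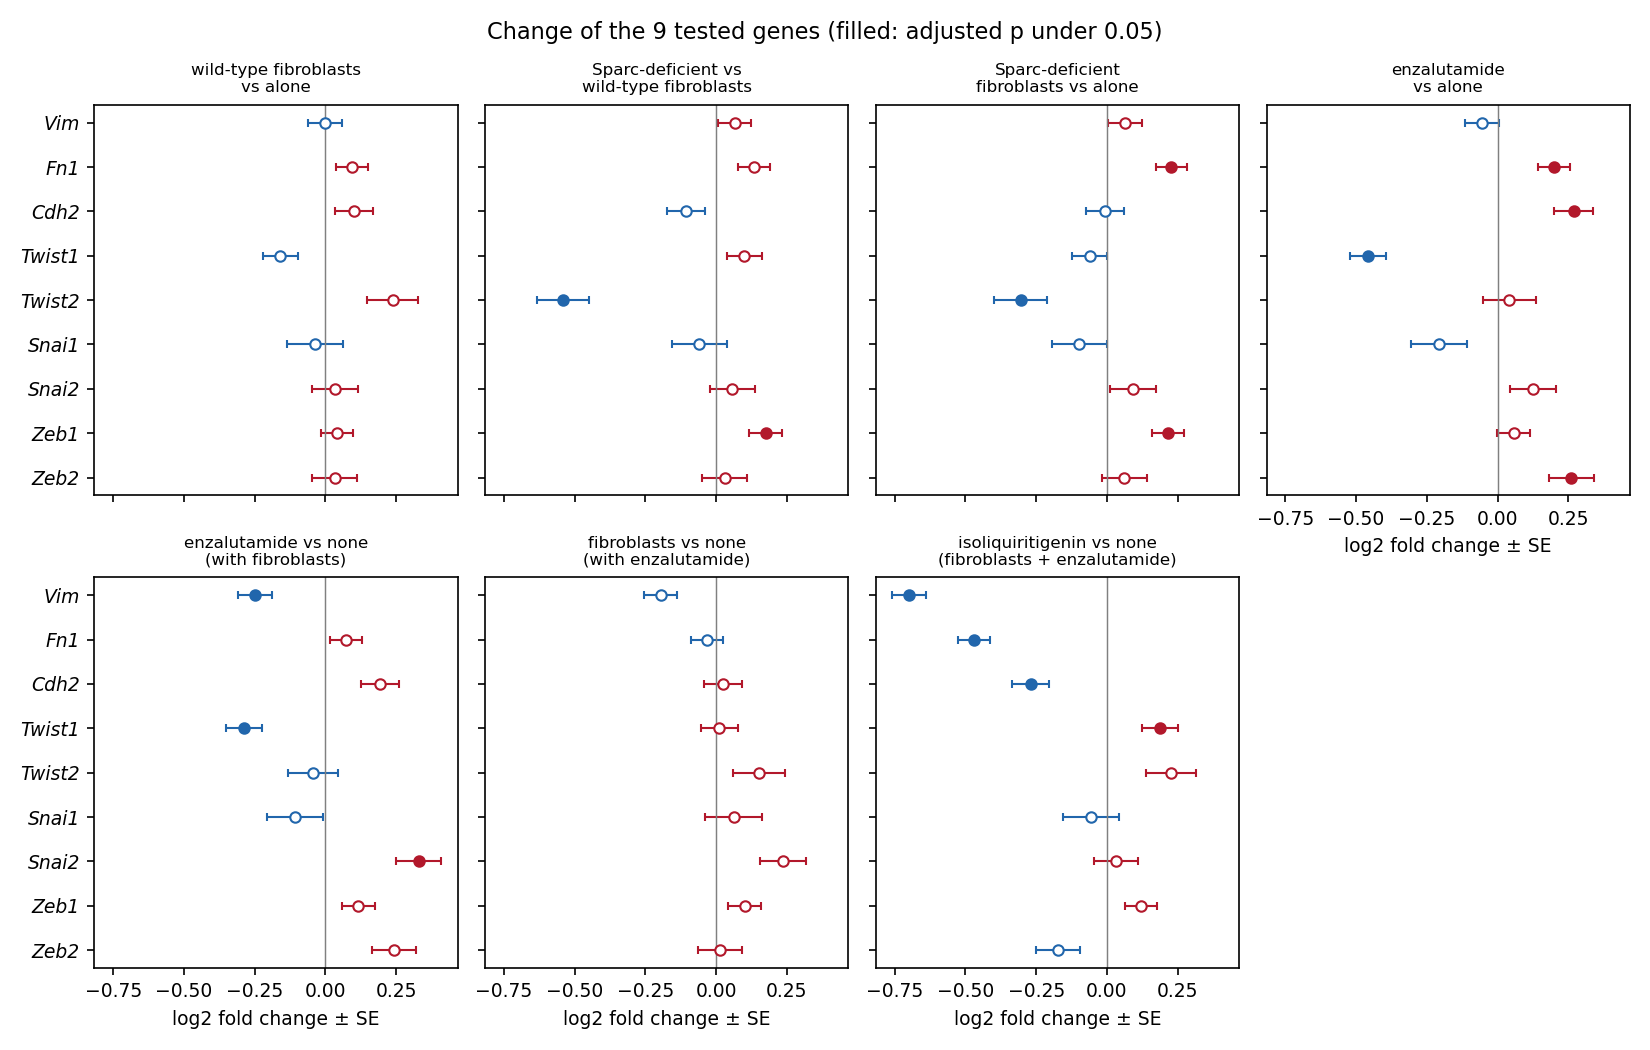
Log2 fold change ± SE of the 9 tested genes in the 7 pairwise comparisons, from the edgeR fit of all 18 libraries. Red is higher and blue lower, filled points have an adjusted p under 0.05, and the lowest filled point is Vim with isoliquiritigenin at -0.70.

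With isoliquiritigenin added to enzalutamide and fibroblasts, all 3 mesenchymal markers fell and Twist1 rose. These were 4 of the 9 tested genes, where 12.9% of all genes were higher and 13.6% lower. Vim stood at 2095, 1891 and 2245 CPM with isoliquiritigenin and at 3421, 3211 and 3479 CPM without, and it fell by 0.70 ± 0.06 (1.62-fold, adjusted p = 9.8e-09). Fn1 stood at 7246, 6724 and 7782 CPM against 9922, 9799 and 10410 CPM and fell by 0.47 ± 0.06 (1.38-fold, adjusted p = 1.01e-06). Cdh2 stood at 66.7, 56.8 and 68.8 CPM against 76.4, 79.8 and 75.8 CPM and fell by 0.27 ± 0.07 (1.21-fold, adjusted p = 0.00362). Every isoliquiritigenin library was below every library without it for these markers. The Fn1 and Vim levels with isoliquiritigenin were the lowest of all 6 groups, whereas Cdh2 stood at 64.1 ± 6.44 CPM, beside 63.1 ± 2.00 CPM in T23 cells alone (SD, n = 3). Because Vim fell more than Fn1, the ratio of Fn1 to Vim per kb was 1.40 to 1.44 with isoliquiritigenin, 1.18 to 1.24 without it and 0.891 to 0.92 in T23 cells alone.

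Of the 6 factors Snai1, Snai2, Zeb1, Zeb2, Twist1 and Twist2, none was called lower with isoliquiritigenin and Twist1 was called higher. Twist1 rose by 0.19 ± 0.06 (adjusted p = 0.0304), from 34.1, 39.5 and 38.0 CPM to 41.4, 44.4 and 41.3 CPM. Twist2 (0.23 ± 0.09, adjusted p = 0.0566), Zeb1 (0.12 ± 0.06, adjusted p = 0.124) and Zeb2 (-0.17 ± 0.08, adjusted p = 0.108) were not called. The groups did not overlap for Twist2, Zeb1 or Zeb2, but the share of all genes without overlap was not counted. Snai2 had a log2 fold change of 0.03 ± 0.08 and Snai1 of -0.06 ± 0.10. Without replicate 2 of enzalutamide alone, a library outside this comparison, 7 genes were called, with Twist2, Zeb1 and Zeb2 added (adjusted p of 0.0356, 0.0488 and 0.0208). Within the second numbering series, against replicates 2 and 3 of the enzalutamide co-culture, the log2 fold change was -0.69 for Vim (adjusted p = 1.72e-07), -0.48 for Fn1 (adjusted p = 7.18e-06), -0.28 for Cdh2 (adjusted p = 0.01) and 0.13 for Twist1 (adjusted p = 0.18). The fall of Vim, Fn1 and Cdh2 was thus as large within that series, and the rise of Twist1 was not called there. The Twist1 call was also lost without replicate 2 of the isoliquiritigenin group (0.15, adjusted p = 0.137).

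The summed fibroblast markers and the mitochondrial share moved with this comparison. The summed level of the 14 fibroblast markers was 21680 to 21920 CPM with isoliquiritigenin and 25060 to 26340 CPM without it, and 12 of the 14 reached 1 CPM in both groups. Most of the sum was Col1a1, Col1a2 and Col3a1, which were lower (means of 7068, 7372 and 4119 against 8858, 8232 and 5236 CPM). Dcn, Thy1, Dpt, Col6a3, Fbln1 and Fap of the same list were also lower. Their means were 144.6, 56.96, 17.94, 587.1, 13.32 and 3.964 against 259.2, 95.35, 43.61, 812.6, 23.16 and 6.09 CPM. Postn was level (718.5 against 720.5 CPM), and Pdgfra and Pdgfrb were higher (means of 1377 and 323.6 against 1131 and 278.5 CPM). Most of the markers that reached 1 CPM were thus lower with isoliquiritigenin. The mitochondrial share of counts was 2.81 to 3.77% with isoliquiritigenin and 1.55 to 2.71% without. The part of either in the fall of Vim and Fn1 was not tested. Cdh1 had 1 to 3 counts in each library of both groups.

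**Figure D4:**
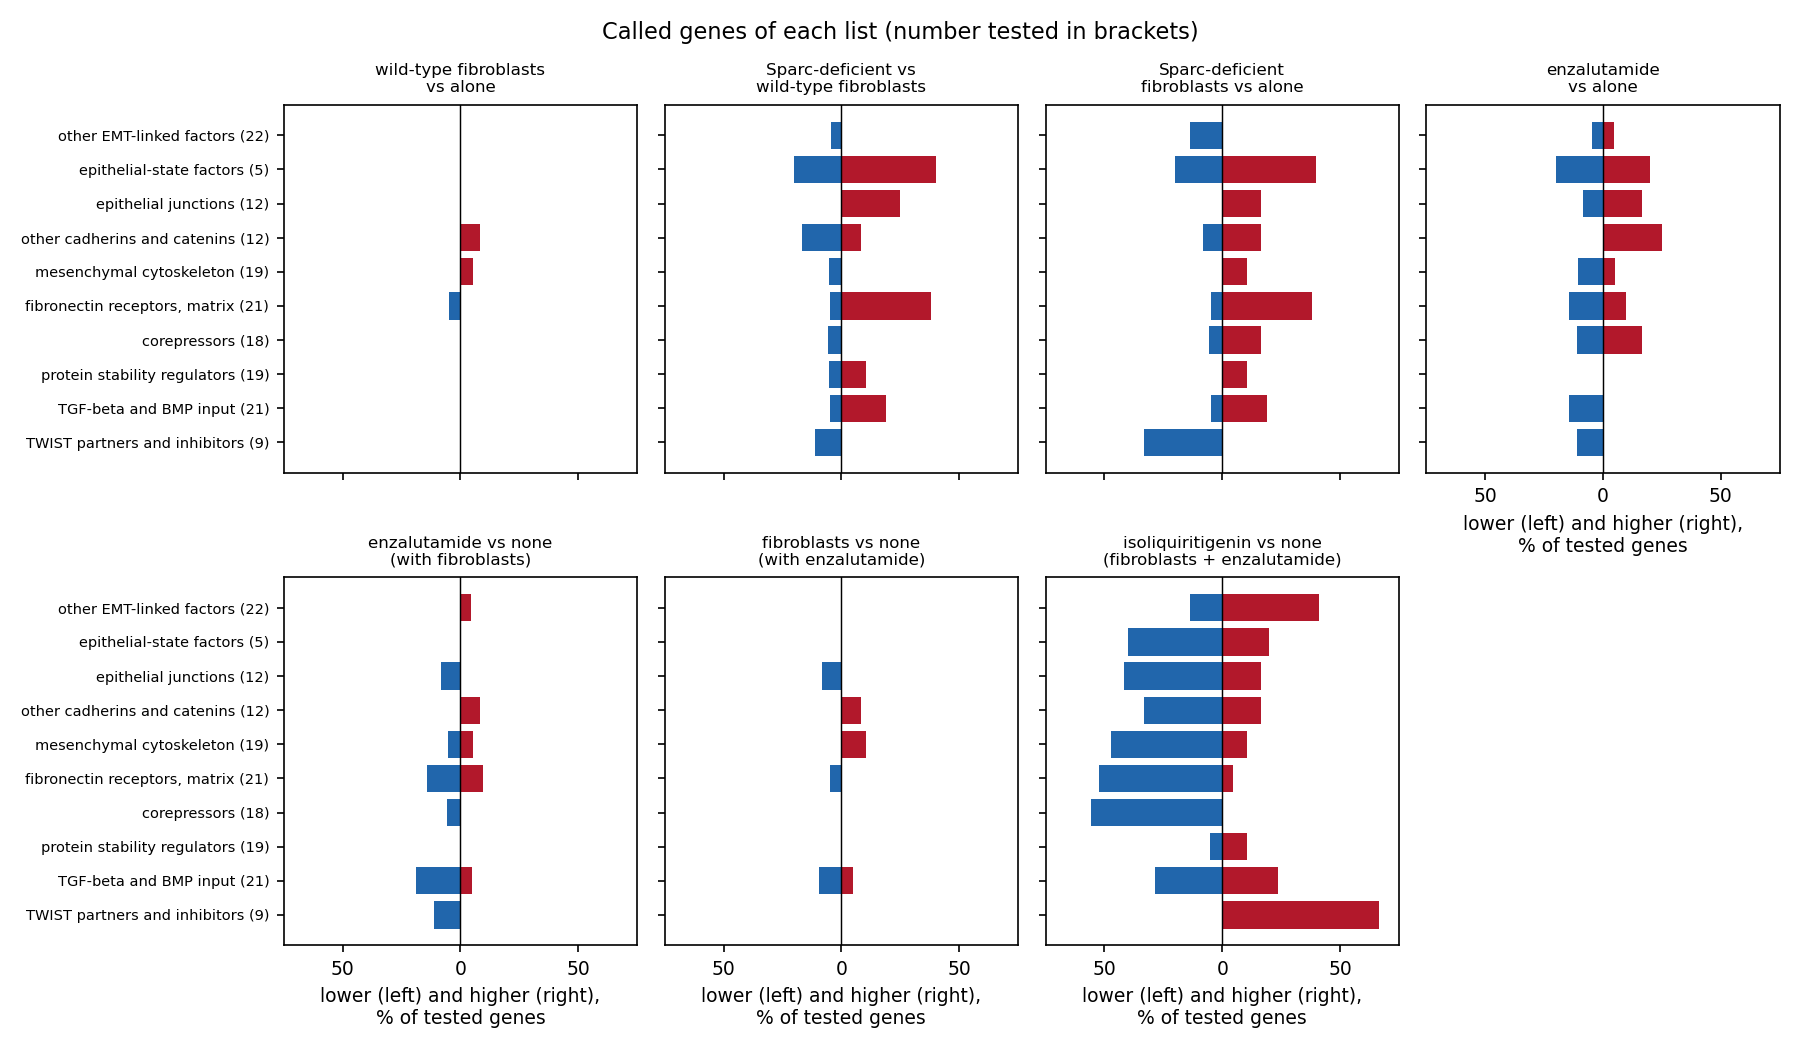
Share of the tested genes of each of 10 related lists that were called higher (right, red) or lower (left, blue) in each pairwise comparison, with the number tested in brackets. With isoliquiritigenin the corepressor list has 10 of 18 genes lower, and the list of TWIST partners and inhibitors has 6 of 9 higher.

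Other genes of the same machinery were counted with isoliquiritigenin, where 12.9% of all genes were higher and 13.6% lower, and the median log2 fold change over all genes was -9.67e-05. Of 19 tested cytoskeletal genes, 9 were lower and 2 higher (median -0.27). Tagln2 fell by 0.50 ± 0.06 and the actin crosslinker gene Actn1 by 0.44 ± 0.06, whereas the intermediate filament gene Synm rose by 1.41 ± 0.19. Of 21 tested fibronectin receptor and partner matrix genes, 11 were lower and 1 higher (median -0.22). Tgm2 fell by 0.50 ± 0.05 and Col3a1, a fibrillar collagen gene, by 0.35 ± 0.05, whereas Tnxb (tenascin X) rose by 1.26 ± 0.13. Of 12 tested other cadherins and catenins, 4 were lower and 2 higher (median -0.09). Cdh3, which encodes P-cadherin, fell by 0.43 ± 0.07, and Cdh6 and Cdh11 rose by 1.06 ± 0.17 and 0.42 ± 0.08, so cadherin genes moved in both directions.

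Lists of regulators and related factors were read against the same shares of all genes, 12.9% higher and 13.6% lower. Of 22 tested other EMT-linked factors, 9 were higher and 3 lower (median 0.20). Foxf1 rose by 0.72 ± 0.07 and Prrx2 by 0.98 ± 0.10, and Ets1 fell by 0.47 ± 0.05. Of 18 tested corepressor genes, 10 were lower and none higher (median -0.18), among them Rcor2 (fell by 0.69 ± 0.09), the histone demethylase gene Kdm1a (fell by 0.27 ± 0.05) and Sin3a (fell by 0.22 ± 0.05). Of 9 tested basic helix-loop-helix partners and inhibitors of TWIST factors, 6 were higher and none lower (median 0.61). The inhibitor genes Id2, Id1 and Id3 rose by 1.18 ± 0.14, 0.92 ± 0.12 and 0.61 ± 0.11. Of 21 TGF-beta and BMP input genes, 5 were higher and 6 lower (median -0.03), with Smad6, an inhibitory SMAD gene, at 1.05 ± 0.18. Of 12 tested junction genes, 5 were lower and 2 higher (median -0.12), with the desmosomal gene Pkp2 at -1.01 ± 0.17 and the polarity gene Pard3 at 0.27 ± 0.06. Of the 5 tested epithelial-state factors, Klf4 rose by 0.48 ± 0.07, and Gata3 and Rbm47 fell by 0.40 ± 0.11 and 0.41 ± 0.12. Of 19 regulators of SNAIL and TWIST protein stability, 2 were higher and 1 lower (median -0.05), both below the shares of all genes, with Pak1 falling by 0.34 ± 0.06. The lists share members (Tcf3, Tcf4, Tcf12 and Cdh3 each stand in 2).

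The genes whose 6 group means were most like those of a member were named by the root-mean-square difference of centred log2 CPM, searched among 10226 genes. For Vim, whose own pattern had a root-mean-square size of 0.35, they were Chmp4c (0.0326), Rundc3a (0.0418) and Pdlim1 (0.0507). For Fn1 (size 0.18) they were Ppp2r3a (0.0225), Lrrk2 (0.0319) and Tro (0.0333), and for Cdh2 (size 0.12) Fam111a (0.031), Stk10 (0.0337) and Odf2 (0.0375). For Twist1 (size 0.18) they were Cyb561d2 (0.0277), Psenen (0.0431) and Stard5 (0.0445), and for Twist2 (size 0.23) Zfp950 (0.0391), Nrep (0.0455) and Fam13b (0.0456). For Snai2 (size 0.15) they were Pnpla2 (0.0336), Bpnt1 (0.0337) and Sphk2 (0.0363). For Zeb1 (size 0.0993) they were Fam13c (0.0187), Eng (0.0255) and Cd164 (0.0257), and for Zeb2 (size 0.108) Phf8 (0.0268), Taf3 (0.0276) and Alms1 (0.0296). No member was among the 3 most like any other member. The likeness rests on 6 means that share libraries and scaling, and is a description.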

How the data were processed

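Raw counts per gene, as deposited by the authors, were used for 18 poly(A) RNA-seq libraries (16.1 to 26.7 M counts). Per the submitters' processing notes, reads were handled with STAR 2.6.1d, featureCounts 2.0, cutadapt 2.9, FastQC 0.11.9, DESeq2 and bcl2fastq 2.20.0.422. The annotation release and strand setting are not given in the sources used here.

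Groups came from the sample descriptions. Symbols, exon lengths and overlaps were taken from GENCODE M21 (GRCm38). Genes were kept by filterByExpr (minimum count 10), which left 13600. Counts were TMM-scaled and fitted in edgeR 4.0.16 (R 4.3.3) with a mean per group, all 18 libraries and 12 residual degrees of freedom. Tests are two-sided quasi-likelihood F tests, adjusted by Benjamini-Hochberg over all tested genes and called under 0.05. SE was taken as the absolute log2 fold change divided by the root of F. A count of 0 allows 3 counts (0.112 to 0.186 per M of the library total, without TMM scaling), which covers counting error only. Alternatives were DESeq2 1.42.0, RLE scaling, no filter, fewer groups, blocks and left-out libraries.

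The members and lists were chosen with earlier results of these data known. All 10 members are named. Genes named from a related list are among its up to 3 called genes with the smallest p in that comparison, and not all of these are named. The lists are not described for wild-type fibroblasts against none or for fibroblasts added under enzalutamide, where some of their genes were called. Some lists with called genes are also left out of other comparisons. For each member called in a pairwise comparison the 3 most like genes with a mean of at least 5 CPM are named. Likeness used log2 CPM with a prior count of 2. The list of protein stability regulators holds Pkd1, which encodes polycystin. One marker gene is not reported here.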

Additional observations from a re-analysis of the deposited data

How the results depend on the processing

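Each of the 9 counts of called genes and each log2 fold change was recomputed under up to 26 alternatives. Of 1872 single-gene values, 1804 kept their side of the threshold, 51 lost and 17 gained a call, and none changed the sign of a call. Of 16 called changes, 5 were called in all 26 alternatives: Twist2 between Sparc-deficient and wild-type co-cultures, Twist1 in both enzalutamide comparisons, and Vim and Fn1 with isoliquiritigenin.

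Between Sparc-deficient and wild-type co-cultures, the count of 2 became 1 with no filter, with the replicate block, with a term for the numbering series, and with the enzalutamide co-culture reduced to its library of the first numbering series (chosen after seeing the data). For the enzalutamide against the wild-type co-culture, the count of 3 became 4 with DESeq2 and with no filter, 5 with only the groups compared in the fit, and 1 with a term for that series and with the reduced co-culture. For the enzalutamide co-culture against enzalutamide alone, the count of 0 became 1 with DESeq2 and with no filter. For isoliquiritigenin the count of 4 became 3 with no filter and with the numbering-series term. The causes were not tested.

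Leaving out a library gave counts of 1 to 2 for Sparc-deficient against wild-type co-cultures, 0 to 3 for Sparc-deficient co-cultures against T23 cells alone, 1 to 4 for enzalutamide, 1 to 5 for enzalutamide with fibroblasts and 3 to 7 for isoliquiritigenin. It gave 0 in the wild-type fibroblast, added-fibroblast and interaction comparisons and 8 across the 6 groups.

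Replicate numbers were not used to pair libraries in the main fit. Of 15 pairs of groups, 0 had same-number correlations all above 0.1 (-0.407 to 0.303). This cannot exclude a pairing, because libraries of different numbers were not compared in the same way. The replicate block ended 2 calls, Zeb1 between the fibroblast genotypes (0.18, adjusted p = 0.0688) and Twist2 against T23 cells alone (-0.30, adjusted p = 0.0541).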
